A study of Caenorhabditis elegans with 25 samples.

Results

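The germlines of control offspring, called M+P+, were compared with oogenic germlines of fem-2 worms. The comparison took every library of these groups, which were 5 of the 25 libraries of the series: 2 of M+P+ offspring and 3 of fem-2. RNA-seq libraries were made from gonad arms that were cut at the bend of late pachytene from young adult Caenorhabditis elegans, so they hold the distal germline with the somatic cells attached to it. M+P+ offspring were homozygous for both mes-3 and fem-2 and came from strain SS1167, which carries mes-3(bn35) over the balancer hT2-GFP in a fem-2(b245ts) background. Both of their parents, feminized mothers and males as fathers, were mes-3/hT2-GFP. The offspring therefore could not make MES-3 themselves but had received maternal product. The fem-2 germlines came from strain DH245, fem-2(b245ts), with no mes-3 mutation and with fem-2 parents. All 5 libraries shared the temperature-sensitive fem-2(b245ts) allele. M+P+ offspring were kept at 15 °C, whereas fem-2 worms were kept at 15 °C and moved to 20 °C at the L4 stage for 24 h. The labels call the worms of both groups hermaphrodites, and the sources used here do not say whether the M+P+ offspring, kept at the lower temperature, made sperm.

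The comparison asks what differs between oogenic germlines of a shared fem-2 background when the mes-3 genotype, the temperature and the sequencing run differ. The run codes carried by the deposited data put both M+P+ libraries in 1 run, together with 2 libraries of M+P- offspring, which had the same genotype but fathers homozygous for mes-3, which had maternal MES-3 product only. They put fem-2 replicates 1 and 2 in another run, and fem-2 replicate 3 in yet another, which it shared with 1 of the 3 wild-type N2 oogenic libraries. No run held both M+P+ and fem-2 libraries. Genotype, parents, temperature and run changed together, and they cannot be told apart in any value given here. The study calls its replicates biological without saying how they were kept apart. Each p-value of a gene weighs the difference between the groups against the spread of these libraries within their groups. Both M+P+ libraries came from 1 run, so the spread between runs of that group is not in it.

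MES-3 is a subunit of the worm Polycomb Repressive Complex 2 (PRC2), which trimethylates histone H3 on Lys27, a mark of repressed chromatin. In worm germlines this mark covers the X chromosomes, which are transcribed little until late oogenesis, and many genes for somatic tissues. FEM-2 is a phosphatase of the sex-determination pathway that is needed to make sperm, and worms without it make oocytes only.

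The 3 fem-2 libraries held 9143676, 5550534 and 16369589 counts in genes, and the M+P+ libraries held 6750907 and 6260684. Levels are given below as CPM, the usual scaling of counts to a common library size, with library sizes corrected by the trimmed mean of M-values (TMM). CPM is not corrected for transcript length, so levels are compared only within a gene. Over the 3805 genes with a mean of at least 50 CPM, the median absolute log2 difference was 0.07 between fem-2 replicates 1 and 2, 0.09 between the fem-2 runs, and 0.16 between the M+P+ libraries. It was 0.29 between M+P+ offspring and fem-2, larger than each of these. The difference between the fem-2 runs does not measure how the run of the M+P+ libraries differs from them. That run held no fem-2 library.

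The mes-3 genotype could not be read from its RNA. mes-3 was read at 144, 118 and 131 CPM in fem-2 and at 125 and 106 CPM in M+P+ offspring, so the groups overlapped, and its log2 fold change of −0.20 ± 0.11 (SE) was not called (edgeR quasi-likelihood test, adjusted p = 0.16). The genes of the PRC2 partners of MES-3, mes-2 and mes-6, were not called either, and neither was mes-4. mes-2, the methyltransferase subunit, was read at 163, 149 and 152 CPM in fem-2 and 141 and 170.1 CPM in M+P+ offspring. mes-6, a WD-repeat subunit whose exons overlap another gene, had a log2 fold change of −0.29 ± 0.12 (SE, adjusted p = 0.063). mes-4, which methylates H3 on Lys36 in germlines, had one of −0.23 ± 0.10 (SE, adjusted p = 0.065). These 3 genes were chosen after their values were seen. fem-2, mutant in both groups, was read at 202, 186 and 182 CPM in fem-2 and was lower in M+P+ offspring, at 125.97 and 127 CPM (log2 fold change −0.59 ± 0.09 SE, edgeR adjusted p = 0.00035). him-8, which pairs the X chromosomes in meiosis and was not mutated here, was read at 66.9 to 69.1 CPM in fem-2 and at 67.4 and 66.97 CPM in M+P+ offspring.

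Of 10753 genes tested with edgeR, 3511 (32.7%) were higher and 2438 (22.7%) were lower in M+P+ offspring at an adjusted p under 0.05. The higher and the lower genes differed in kind. The median change of the genes called higher was 3.22 on the log2 scale, and 2701 of them (76.9%) had a mean level under 5 CPM over both groups. The genes called lower changed less, with a median absolute log2 change of 0.60. Only 77 of them (3.16%) lay under 5 CPM, whereas 1795 lay at 50 CPM or more. Among the 363 genes with a mean of 500 CPM or more, 271 were lower and 7 were higher. Among the 496 genes under 1 CPM, 487 were higher, and such genes could pass the filter on low counts only through the group in which they were high. When the test was limited to the 6905 genes with a mean of at least 5 CPM, a choice made after the data were seen, 770 were higher and 2259 lower. Scaling by library totals alone moved the median log2 fold change of all genes from 0.05 to 0.41 and gave 5009 higher and 877 lower, so that the share of calls that were higher went from 59.0% to 85.1%. Changes below are relative to the TMM scale.

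**Figure D1:**
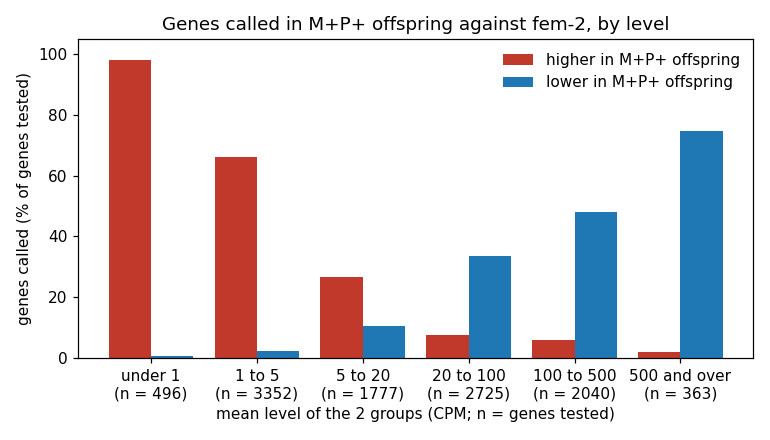
Share of genes called higher (red) or lower (blue) in M+P+ offspring against fem-2, in % of the genes tested, by the mean level of both groups in CPM. Under 1 CPM 98.2% were higher, and at 500 CPM and over 74.7% were lower.

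Many more gene identifiers had reads in M+P+ offspring than in fem-2. Replicate 2 of fem-2 had at least 1 count in 12281 gene identifiers, and the M+P+ libraries, at similar depth, had at least 1 count in 24205 and 25289. Chemoreceptor genes encode receptors of sensory neurons. At least 1 count was found for at most 551 of their 1300 identifiers in a fem-2 library and for 1237 and 1272 in the M+P+ libraries. Of the 56 chemoreceptor genes tested, 37 (66.1%) were higher and none was lower (median log2 fold change 3.12, or 1.92 with the genes at the floor set to their bound), but none of those called higher exceeded 5.26 CPM in mean. Of the 37 higher genes, 27 had at most 3 counts in every fem-2 library, so that they could pass the count filter only through the M+P+ libraries. Of all genes tested 32.7% were higher, and of those with a mean of 1 to 5 CPM 66.1% were, a share like that of the chemoreceptor genes. The summed level of the 15363 annotated piRNA loci, which make small RNAs of the germline and of which 1 was tested and not called, was 15.4, 25.2 and 30.4 CPM in fem-2 and 152 and 227 CPM in M+P+ offspring. The sum over 609 tRNA genes was 7.82, 4.50 and 5.46 CPM in fem-2 and 27.8 and 42.2 CPM in M+P+ offspring. Reads that fell in no gene made up 10.6%, 11.6% and 12.15% of the reads given to genes, to several genes or to none in fem-2, and 15.4% and 18.8% in M+P+ offspring. The M+P- libraries of the same run had at least 1 count in 23087 and 23299 identifiers and had 13.2% and 14.5% of such reads. The part of these reads in the genes called higher was not tested.

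The largest increases came from genes near 0 in fem-2. Where every fem-2 library had at most 3 counts, the fold is a lower bound against a floor of 3 counts per library, on average 0.396 CPM. C07G1.7 was read at 0, 0.409 and 0.0658 CPM in fem-2 and at 56.4 and 27.5 CPM in M+P+ offspring, at least 106-fold higher. ncx-4, a sodium-calcium exchanger, was at least 82.4-fold higher, with 38.7 and 26.6 CPM in M+P+ offspring. ift-139, of the transport machinery of cilia, which worms carry on sensory neurons, was at least 62.1-fold higher. cutl-23, of a family of cuticle proteins, was at least 57.8-fold higher, C55C3.1 at least 43.1-fold and K01C8.2 at least 26.2-fold. The exons of ncx-4, cutl-23 and K01C8.2 overlap a gene on the other strand, and since the libraries did not keep strand their reads cannot be told apart from those of that gene. C38D9.2 was read at 1.13, 0.409 and 0.592 CPM in fem-2 and 199.96 and 64.8 CPM in M+P+ offspring (log2 fold change 7.49 ± 0.52 SE, adjusted p = 7.2e-06). All genes named in this paragraph were above every fem-2 library in both M+P- libraries as well, with C38D9.2 at 86.8 and 111 CPM there.

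Among genes that fem-2 germlines clearly expressed, a few rose by about 2 on the log2 scale or more, in both M+P+ libraries. Those named in this paragraph other than dpy-27, sdc-3 and tra-3 were chosen after their values were seen. dpy-27, the condensin-like subunit of the dosage compensation complex, was read at 38.8, 45.2 and 50.2 CPM in fem-2 and 177 and 189 CPM in M+P+ offspring (log2 fold change 2.02 ± 0.12 SE, adjusted p = 2.5e-06). sdc-3, a zinc finger protein that brings this complex to the X chromosomes, was read at 37.3, 37.8 and 40.7 CPM against 176 and 137 CPM (log2 fold change 2.01 ± 0.12 SE). tra-3, a calpain protease that promotes female development, was read at 25.1, 29.5 and 39.5 CPM against 172 and 224 CPM (log2 fold change 2.63 ± 0.18 SE, adjusted p = 6.1e-06). For each of these genes the groups lay far apart. lin-59, a SET-domain protein related to fly ASH1, rose from 66.8, 77.7 and 73.8 CPM to 328 and 283 CPM, a log2 fold change of 2.07 ± 0.10 (SE). unc-73, a guanine-nucleotide exchange factor of the Trio family that overlaps exons of another gene, rose by 2.10 ± 0.09 (SE) on the log2 scale, and T28C6.7, overlapped on the other strand, by 2.45 ± 0.09. In the N2 libraries, which were no part of this test, dpy-27 averaged 41.5 CPM, sdc-3 41.1 CPM and tra-3 37.0 CPM. In the M+P- libraries dpy-27 was at 188 and 149 CPM, sdc-3 at 183 and 161 CPM, and tra-3 at 108 and 165 CPM.

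**Figure D2:**
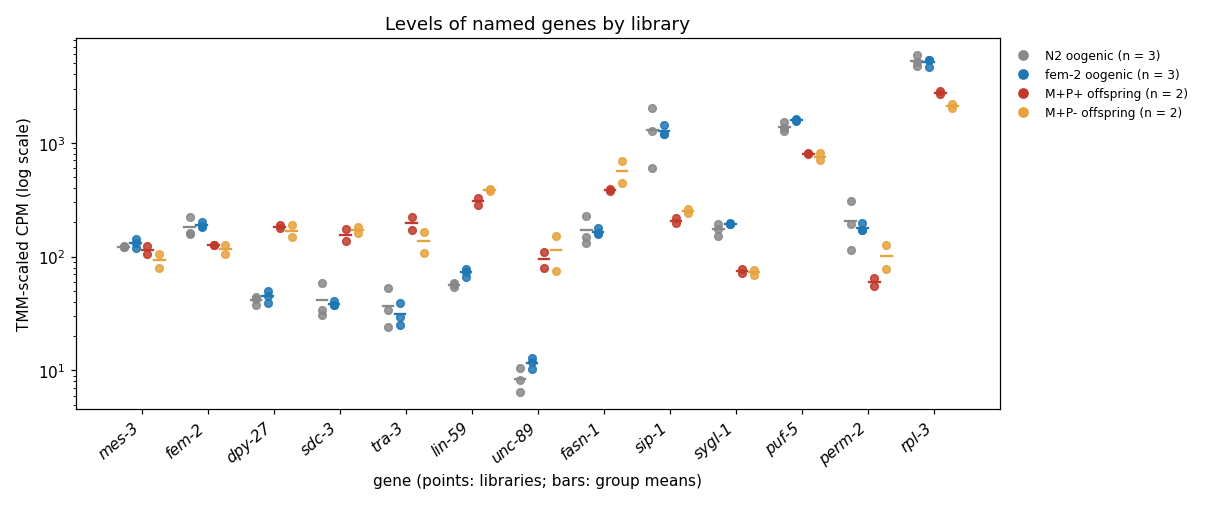
TMM-scaled CPM (log axis) of named genes in each library of the N2, fem-2, M+P+ and M+P- groups, where points are libraries and short bars are group means. dpy-27 lies at 38.8 to 50.2 CPM in fem-2 and at 177 and 189 CPM in M+P+ offspring, and sip-1 lies at 1189 to 1426 CPM in fem-2 and at 196 and 217 CPM in M+P+ offspring.

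Of the dosage compensation and condensin list 1 other gene, xol-1, was higher besides dpy-27 and sdc-3. The dosage compensation complex lowers X expression in the soma of XX worms. Of the 18 genes tested, 3 were higher, 4 lower and 11 not called (median log2 fold change −0.07), against 32.7% higher and 22.7% lower over all genes tested. Among all genes with a mean of 100 to 500 CPM 6.03% were higher and 48.1% lower. xol-1, a switch gene of male fate, rose by 1.97 on the log2 scale and stood at 1.01, 0.409 and 1.71 CPM in fem-2 and 6.08 and 3.005 CPM in M+P+ offspring. dpy-26, dpy-28, mix-1 and capg-1, which encode core subunits of the complex, were not called, and dpy-28 was read at 308, 313 and 310.0 CPM against 285 and 297 CPM. dpy-21, an H4K20 demethylase of the complex, fell by 0.96 on the log2 scale (SE 0.11), from 274, 247 and 234.9 CPM to 117 and 142 CPM. dpy-30, also a part of H3K4 methyltransferase complexes and with exons overlapping another gene, fell by 0.35. Scaling by library totals ended that call and turned the median of the list to 0.29.

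Genes for protein synthesis were lower almost throughout. Of 78 cytosolic ribosomal protein genes tested, 75 (96.2%) were lower and none was higher, with a median log2 fold change of −1.05. Their summed level was 123413, 119646 and 115430 CPM in fem-2 and 58189 and 64285 CPM in M+P+ offspring. Of all genes tested with a mean of 500 CPM or more 74.7% were lower, with a median log2 fold change of −0.55. rpl-3, of the large subunit, was read at 5323, 5395 and 4675 CPM in fem-2 and at 2670 and 2871 CPM in M+P+ offspring (log2 fold change −0.89 ± 0.11 SE, adjusted p = 0.00014). The largest decreases of the ribosomal protein list were those of rpl-29, which fell by 2.23 on the log2 scale, rps-28 by 1.80, rpl-39 by 1.51 and rpl-24.1 by 1.45. The 3 genes not called were rpl-24.2, rpl-11.2 and rpl-25.1, and rpl-11.2 was read at 10.97, 7.98 and 10.7 CPM in fem-2 and at 49.4 and 6.58 CPM in M+P+ offspring. The translation factors eef-1A.1 and eef-2 were lower too. eef-1A.1, which brings tRNAs to the ribosome and overlaps a gene on the other strand, was read at 18644, 18627 and 15541 CPM in fem-2 and at 8867 and 9787 CPM in M+P+ offspring (log2 fold change −0.92 ± 0.14 SE). eef-2, which moves the ribosome along, fell by 0.48 (SE 0.12), and its call was lost under scaling by library totals.

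Transcript length went with the changes. Over the genes with a mean of at least 50 CPM and a known length, split into 4 equal groups, the shortest (median length 950.5 bases) had a median log2 fold change of −0.44, with 581 of 942 lower. The longest (median 3635 bases) had a median of −0.15, with 362 of 945 lower. When a length trend was taken out of each library, 75 ribosomal protein genes were lower and 2 higher, and their median was −0.77 where that of all genes was −0.34. Of the 6 most abundant protein-coding genes called higher, 5 turned to negative values under that correction, of which sma-1 and nol-56 remained above the all-gene median of −0.34. vab-10, a spectraplakin overlapped on the other strand, rose by 0.73 on the log2 scale and was at −0.57 after it, and sma-1, a spectrin, rose by 1.21 and was at −0.0085. frm-1, a FERM-domain protein, let-716, a ribosome assembly factor, and nol-56, of the box C/D snoRNPs, rose by 0.36, 0.34 and 0.27 and were at −0.91, −0.45 and −0.28. cdh-4, a large cadherin overlapped on the other strand, rose by 1.56, from 265, 328 and 294 CPM to 1022 and 728 CPM, and did not turn. utp-20, rpoa-2 and rpc-1, of ribosome assembly and of RNA polymerases I and III, were chosen after their values were seen. They rose by 0.84, 0.36 and 0.36, and all 3 turned to negative values under the correction, where utp-20, at −0.09, lay above the median of all genes.

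Other housekeeping lists were lower as well. Of all genes tested 22.7% were lower, and of those with a mean of 100 to 500 CPM 48.1% were. Of 33 proteasome genes 30 (90.9%) were lower and none was higher (median log2 fold change −0.55). The largest decreases of the list were those of rpn-11, the deubiquitinase of the lid, and rpt-6, an ATPase of the base, which were lower by 1.05 and 0.998 on the log2 scale and are both overlapped on the other strand. pbs-1 and pbs-7, of the core particle, fell by 0.96 and 0.95. Of 43 nuclear genes of the mitochondrial respiratory chain 32 (74.4%) were lower and none higher (median −0.63). cyc-2.1, a cytochrome c, was read at 319, 314 and 305 CPM in fem-2 and at 141 and 128 CPM in M+P+ offspring, and the cytochrome c oxidase subunit genes cox-6B and cox-6C had log2 fold changes of −1.18 and −1.196. Of 41 cell cycle and replication genes 28 (68.3%) were lower and 1 was higher (median −0.39). pcn-1, the sliding clamp of DNA polymerase, was read at 532, 529 and 505 CPM against 248 and 293 CPM, and cyb-3, a B-type cyclin, at 893, 854 and 932 CPM against 417 and 517 CPM. pri-2, a primase subunit, and psf-1, of the GINS complex, fell by 0.88 and 0.92. The higher gene was cki-1, an inhibitor of cyclin-dependent kinases, read at 1.55 and 6.58 CPM in M+P+ offspring. Scaling by library totals left 15 proteasome, 17 respiratory chain and 12 cell cycle genes lower, and fitting all 25 libraries left 17, 17 and 6.

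Chaperone genes were mostly lower in M+P+ offspring. Of 29 genes tested, 17 (58.6%) were lower, 1 was higher and 11 were not called (median log2 fold change −0.38). Of all genes tested 22.7% were lower, and of those with a mean of 100 to 500 CPM 48.1% were. The median of the list, taking the higher group of each gene, was 431 CPM. sip-1, a small heat shock protein of oocytes and embryos that is overlapped on the other strand, was read at 1426, 1189 and 1201 CPM in fem-2 and at 196 and 217 CPM in M+P+ offspring, a log2 fold change of −2.63 ± 0.11 (SE, edgeR adjusted p = 6.9e-07). The M+P- libraries read 259.7 and 239 CPM, so both offspring groups lay far below fem-2 for this gene. hsp-1 and hsp-90, the constitutive HSP70 and HSP90, fell by 0.91 and 0.65 on the log2 scale, and hsp-60, a mitochondrial chaperonin, fell by 0.77. The higher gene was F44E5.4, a heat-inducible HSP70, read at 1.01, 0.205 and 1.38 CPM in fem-2 and 4.14 and 6.15 CPM in M+P+ offspring. hsf-1, the heat shock transcription factor, fell by 0.43 (SE 0.08). Under scaling by library totals 7 chaperone genes were lower and 7 higher.

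Genes for fatty acid synthesis, desaturation and elongation were called in both directions, in shares near those of all genes tested. Desaturases and elongases set the fluidity of membranes. Of 19 genes tested 7 (36.8%) were higher, 3 (15.8%) were lower and 9 were not called, against 32.7% and 22.7% of all genes tested. fasn-1, fatty acid synthase, was read at 162, 179 and 157 CPM in fem-2 and 379.9 and 389 CPM in M+P+ offspring (log2 fold change 1.21 ± 0.08 SE, adjusted p = 6.1e-06), a call lost when all 25 libraries were fitted. fat-3, the delta-6 desaturase, was read at 1.89, 2.05 and 2.43 CPM against 8.54 and 13.02 CPM (log2 fold change 2.31 ± 0.39 SE). The elongases elo-2 and elo-6 rose by 1.32 and 1.14. pod-2, acetyl-CoA carboxylase, which provides the substrate of fatty acid synthase, fell by 0.68, so these consecutive enzymes moved in opposite directions.

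The genes of oogenesis were lower as a group. Of 30 oogenesis and maternal genes, all of which passed the count filter, 29 (96.7%) were lower and none was higher, with log2 decreases from 0.39 to 1.59 and a median log2 fold change of −0.73. Of all genes tested 22.7% were lower. Of those with a mean of 500 CPM or more 74.7% were lower, with a median log2 fold change of −0.55. The median of the list, taking the higher group of each gene, was 667 CPM. rme-2, the yolk receptor of oocytes, was read at 2643, 2539.8 and 2461 CPM in fem-2 and 1407 and 1492 CPM in M+P+ offspring. puf-5, a translational regulator of oocytes, was read at 1621, 1596 and 1543 CPM against 796 and 812 CPM (log2 fold change −0.98 ± 0.08 SE, adjusted p = 1.7e-05). Neither gene overlapped between the groups, which was also the case for 70.9% of all genes tested. perm-2, a protein of the vitelline layer overlapped on the other strand, fell from 198, 171 and 170.4 CPM to 64.5 and 54.8 CPM, cpg-1, an eggshell proteoglycan, by 1.05 on the log2 scale, and puf-11 by 1.02. oma-1 and oma-2, RNA-binding proteins needed for oocyte maturation, fell by 0.52 and 0.86 and were, like rme-2, chosen after their values were seen. cbd-1, which anchors eggshell chitin, stood at 7707, 7419 and 6702 CPM in fem-2 and at 4623 and 4356 CPM in M+P+ offspring. The exception was glp-1, the Notch receptor of germline stem cells, whose RNA is also stored maternally, with 565, 594 and 544 CPM against 572 and 552 CPM. Under scaling by library totals 21 of the 30 genes were lower and 1, glp-1, was higher, and fitting all 25 libraries left 8 lower.

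In the stem cell pool, germ granules and meiosis the medians were nearer to 0. In the list of germline stem cell and meiotic entry genes 15 of 28 (53.6%) were lower, 3 (10.7%) higher and 10 not called (median log2 fold change −0.38). Of all genes tested 22.7% were lower and 32.7% higher, and of those with a mean of 100 to 500 CPM 48.1% were lower. sygl-1 and lst-1, the targets of Notch signalling that keep stem cells undifferentiated, were both lower. sygl-1 fell from 194, 193 and 199 CPM to 72.3 and 78.1 CPM, and lst-1 from 142, 140.1 and 151 CPM to 78.2 and 78.6 CPM. tra-1, the last regulator of the sex-determination pathway, fell by 0.85 on the log2 scale, fem-3 by 0.84 and gld-1, a repressor of translation in meiosis, by 0.57. fem-1, which acts with FEM-2 and FEM-3, was read at 123.2, 133 and 114 CPM against 114.7 and 114 CPM, and fog-1, which promotes sperm fate, had a log2 fold change of −0.55 ± 0.24 (SE, adjusted p = 0.071). Besides tra-3, the higher genes of the list were her-1, a male-determining ligand, at 2.07 and 2.43 CPM in M+P+ offspring, and fog-3, needed for sperm fate. fog-3 had no count in any fem-2 library and 2.72 and 2.29 CPM in M+P+ offspring, at least 6.31-fold higher.

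Among P granule and small RNA genes 19 of 38 (50%) were lower, 2 (5.26%) higher and 17 not called (median −0.30). Of all genes tested with a mean of 100 to 500 CPM 48.1% were lower, a share near that of this list. meg-4 and meg-3, X-linked genes for disordered granule proteins, fell by 1.02 and 0.89, glh-2, a Vasa-like helicase, by 0.80 and pgl-3 by 0.76. Of 33 genes of the synaptonemal complex, chromosome axis and recombination 9 (27.3%) were lower, 1 (3.03%) was higher and 23 were not called (median −0.15). That share of lower genes was near the one of all genes tested (22.7%), of which 32.7% were higher. Among all genes with a mean of 20 to 100 CPM 33.7% were lower and 7.63% higher. htp-3, an axis protein, fell by 0.60, plk-2, a meiotic Polo-like kinase, by 0.55 and lab-1, which protects cohesion, by 0.55. rad-50, of the complex that resects DNA breaks, rose by 0.57 and was at −0.17 after the length correction, above the median of all genes. Under scaling by library totals the medians of these 2 lists were 0.05 and 0.21.

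The chromatin lists held genes called in both directions. Of 12 genes for PRC2 and for the methylation and demethylation of H3K27 and H3K36, 2 were higher, 3 lower and 7 not called (median log2 fold change −0.10), which is 16.7% higher and 25% lower against 32.7% and 22.7% of all genes tested. jmjd-3.1, an X-linked H3K27 demethylase, was read at 5.17, 6.75 and 7.50 CPM in fem-2 and 14.1 and 12.16 CPM in M+P+ offspring (log2 fold change 1.01 ± 0.32 SE, adjusted p = 0.021). jmjd-3.2 was higher as well, at 3.104 and 3.43 CPM. mrg-1, a chromodomain protein that binds methylated H3K36, fell by 0.77, jmjd-2, an H3K9 and H3K36 demethylase, by 0.79, and jmjd-1.2 by 0.23, a decrease not called by DESeq2. Of 20 genes for H3K4 and H3K9 methylation and HP1, 7 were lower, 2 higher and 11 not called (median −0.11), so that 35% were lower against 22.7% of all genes tested. Among all genes with a mean of 20 to 100 CPM 33.7% were lower, and among those of 100 to 500 CPM 48.1% were. Taking the higher group of each gene, the medians of the PRC2 list and of this list were 165 and 117 CPM. set-16, an H3K4 methyltransferase, fell from 827, 775 and 677 CPM to 435 and 399 CPM, and arle-14 fell by 0.84. amx-1, related to LSD1 demethylases, rose by 0.96 and wdr-5.2 by 1.59. Under scaling by library totals the medians of these 2 lists were 0.26 and 0.25.

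The vitellogenins, a list chosen after the data were seen, fell further than any other list. They encode yolk proteins, which the intestine makes and oocytes take up through RME-2. All 6 were lower, with log2 fold changes from −4.62 to −3.84. vit-6 was read at 656, 200.03 and 467 CPM in fem-2 and at 30.01 and 17.3 CPM in M+P+ offspring (log2 fold change −4.22 ± 0.46 SE, adjusted p = 8.2e-05). vit-2 was read at 517, 153 and 365 CPM against 23.9 and 14.7 CPM, and vit-3 at 379, 101 and 266 CPM against 10.9 and 9.44 CPM. vit-2, vit-3 and vit-4 overlap a gene on the other strand, and vit-3, vit-4 and vit-5 are close copies of each other, so their single values are uncertain. fem-2 replicate 2 was the lowest fem-2 library for these genes, and it still lay above both M+P+ libraries. Over the 6 genes the summed level was 2582, 727 and 1825 CPM in fem-2, 1984, 1369 and 1849 CPM in N2, 102 and 74.3 CPM in M+P+ offspring, and 583 and 171 CPM in M+P- offspring.

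**Figure D3:**
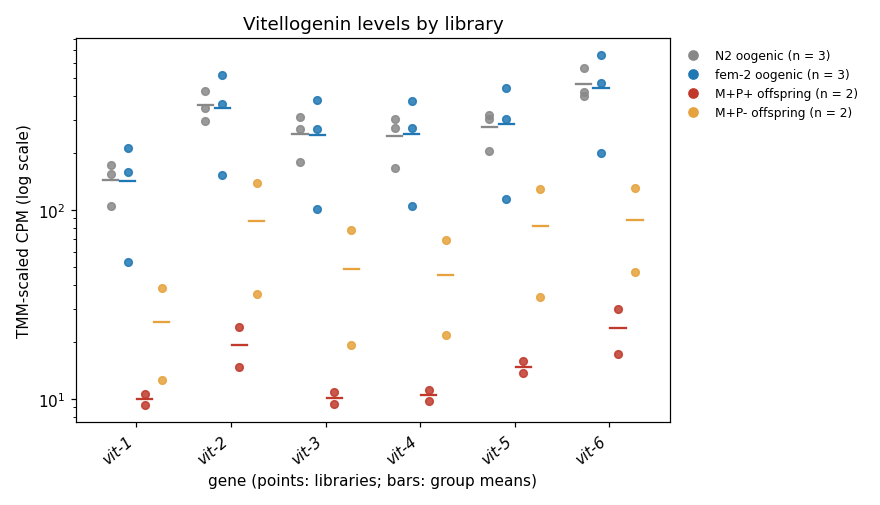
TMM-scaled CPM (log axis) of the 6 vitellogenin genes in each library of the N2, fem-2, M+P+ and M+P- groups, where each point is a library. For vit-6 the fem-2 libraries lie at 656, 200.03 and 467 CPM and the M+P+ libraries at 30.01 and 17.3 CPM.

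Other intestinal and epidermal transcripts did not all follow the vitellogenins. Of 14 intestine markers tested, the 6 vitellogenins included, 8 (57.1%) were lower and 3 (21.4%) higher (median log2 fold change −2.47). The shares over all genes tested were 22.7% and 32.7%. All 6 vitellogenins were among the 8 lower ones. The sum of the list was 2637, 746 and 1900.1 CPM in fem-2 and 122.5 and 104 CPM in M+P+ offspring. In the group means the vitellogenins gave 1711 of 1761 CPM in fem-2 and 88.3 of 113 CPM in M+P+ offspring. The 3 higher markers were pept-1, a peptide transporter, ges-1, a gut esterase, and ifb-2, an intestinal intermediate filament, with means of at most 3.49 CPM. asp-6, an aspartic protease, fell from 16.01, 6.14 and 18.3 CPM to 0.905 and 1.57 CPM. Of 12 hypodermis markers 6 (50%) were higher and 3 (25%) lower, against 32.7% and 22.7% of all genes tested. The lower ones were cuticle collagens. col-140 was read at 41.1, 13.9 and 42.9 CPM against 1.55 and 8.16 CPM, col-119 at 45.1, 20.04 and 52.9 CPM against 9.18 and 13.2 CPM, and col-19 at 18.03, 6.14 and 19.5 CPM against 4.01 and 5.29 CPM. The 6 higher ones stood at 3.35 CPM or less in mean, and 5 of them had at most 3 counts in every fem-2 library. Among all genes with a mean of 1 to 5 CPM 66.1% were higher, against the 50% of the hypodermis markers. Of 175 identifiers for cuticle collagens, a list chosen after the data were seen, 121 passed the count filter. Of those, 83 (68.6%) were higher, at no more than 7.12 CPM in mean, and 55 of the higher ones had at most 3 counts in every fem-2 library, so that they could pass only through the M+P+ libraries. Of all genes tested with a mean of 1 to 5 CPM 66.1% were higher, a share near that of the collagens. The lower collagens were 18, among them col-143, from 31.5, 8.999 and 29.4 CPM to 0.776 and 3.005 CPM. Whether fewer attached cells or less RNA per cell gave a lower level cannot be told apart in such bulk samples.

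Markers of neurons, pharynx and somatic gonad were higher, mostly from very low levels. Of 14 neuron markers 9 passed the count filter. Of these, 7 (77.8%) were higher and 1 (11.1%) lower, against 32.7% and 22.7% of all genes tested. Among all genes with a mean of 1 to 5 CPM 66.1% were higher, and among those of 5 to 20 CPM 26.6% were. The sum of the list was 95.1 to 109 CPM in fem-2 and 178 and 124 CPM in M+P+ offspring. egl-3, a proprotein convertase, was read at 1.01, 2.05 and 2.76 CPM against 34.7 and 11.7 CPM, and unc-13, of synaptic vesicle priming, at 0.504, 1.02 and 0.855 CPM against 20.6 and 16.3 CPM. ida-1, of dense core vesicles, was at least 39.9-fold higher and ric-19 rose by 3.88 on the log2 scale. In fem-2, unc-13 had 4, 5 and 13 counts, ida-1 had 1, 0 and 2, and ric-19 had 5, 3 and 8. These genes could pass the filter only through the M+P+ libraries. snb-1, synaptobrevin, gave most of the sum in fem-2 and fell by 0.64. Of 10 pharynx markers 5 passed the filter, and all 5 were higher, against 32.7% of all genes tested. The sum of the list was 2.65 to 4.14 CPM in fem-2 and 26.8 and 42.9 CPM in M+P+ offspring. The pharyngeal myosins myo-2 and myo-1 reached 8.79 and 13.6 CPM and 5.69 and 9.87 CPM. In fem-2, myo-2 had 1, 2 and 5 counts, myo-1 had 1, 0 and 12, and phat-1 had 0, 0 and 0. They too could pass the filter only through the M+P+ libraries, which favours a call of higher. Of 13 tested markers of sheath, distal tip and spermatheca 10 (76.9%) were higher and 1 (7.69%) lower, against 32.7% and 22.7% of all genes tested. Taking the higher group of each gene, the medians of the neuron, pharynx and somatic gonad lists were 8.75, 5.21 and 11.2 CPM. lim-7, a sheath transcription factor, was read at 1.39, 0.205 and 1.38 CPM against 12.16 and 10.02 CPM, and itr-1, the IP3 receptor, overlapped on the other strand, at 6.05, 5.73 and 6.25 CPM against 34.8 and 31.8 CPM. gon-1 and mig-6, both overlapped on the other strand, rose by 2.41 and 2.03. inx-8, a sheath gap junction protein, was read at 29.1, 30.9 and 26.6 CPM in fem-2 and 28.7 and 29.3 CPM in M+P+ offspring and was not called, and the sum of the list was 219 to 238 CPM in fem-2 and 297 and 279 CPM in M+P+ offspring.

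Of 12 muscle markers 3 (25%) were higher and 3 (25%) lower, near the shares of all genes tested (32.7% and 22.7%). unc-89, the muscle protein obscurin, was read at 11.8, 10.2 and 12.96 CPM against 109.7 and 79.7 CPM (log2 fold change 2.996 ± 0.18 SE), and unc-22, twitchin, whose exons overlap other genes, and myo-3, a body wall myosin, rose by 2.26 and 2.12. unc-54, the major body wall myosin, was not called, with 37.9, 18.6 and 35.9 CPM against 33.4 and 32.5 CPM, and mlc-2, a myosin light chain overlapped on the other strand, fell by 2.14. The only coelomocyte marker tested was not called. The part of attached somatic cells in these changes was not tested.

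Sperm genes were mostly near the floor in both groups. Of 94 identifiers for spermatogenesis genes 26 passed the count filter, 18 of them (69.2%) higher and 2 lower. Of all genes tested 32.7% were higher, and of those with a mean of 1 to 5 CPM 66.1% were. The higher spermatogenesis genes had means of at most 22.4 CPM, and 8 of them had at most 3 counts in every fem-2 library. spe-41, a sperm calcium channel, was read at 6.30, 8.39 and 8.68 CPM in fem-2 and 25.4 and 19.5 CPM in M+P+ offspring, and fer-1, of sperm membrane fusion, overlapped on the other strand, at 0.756, 0.818 and 1.12 CPM against 9.31 and 13.9 CPM. spe-39 and spe-48 fell by 0.42 and 0.47 on the log2 scale, and DESeq2 did not call spe-48. The summed level of the list was 687, 689 and 668 CPM in fem-2 and 767.4 and 706 CPM in M+P+ offspring.

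In the immune and pathogen list 7 of 16 genes (43.8%) were higher and 3 (18.8%) lower, against 32.7% and 22.7% of all genes tested. The median of the list, taking the higher group of each gene, was 3.80 CPM. Among all genes with a mean of 1 to 5 CPM 66.1% were higher. Of the 7 higher genes of the list, 5 had at most 3 counts in every fem-2 library. pmk-1, the p38 kinase of innate immunity, was read at 5.42, 8.39 and 7.76 CPM against 31.9 and 18.6 CPM (log2 fold change 1.81 ± 0.33 SE, adjusted p = 0.00089). clec-71, a C-type lectin with no count in fem-2, was at least 13.5-fold higher, and pals-22 rose by 1.24, a change not called by DESeq2. Of 11 tubulins 5 (45.5%) were lower and 4 (36.4%) higher, against 22.7% and 32.7% of all genes tested. The abundant tba-1 and tbb-2 fell by 0.98 and 0.94, tbb-2 from 2407, 2165 and 2039.9 CPM to 1149.8 and 1149.7 CPM. tbb-6 was higher through M+P+ replicate 1 above all, with 32.1 and 2.15 CPM, and tba-4 was read at 1.89, 1.02 and 2.50 CPM against 4.66 and 7.44 CPM.

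Histone genes went in opposite directions according to where they lie. Core histones are encoded by nearly identical copies in clusters, and the counting could split or drop reads among them, so single values are uncertain. Of 70 tested 18 (25.7%) were higher and 32 (45.7%) lower, against 32.7% and 22.7% of all genes tested. Among all genes with a mean of 20 to 100 CPM 33.7% were lower, and among those of 100 to 500 CPM 48.1% were. The median of the list, taking the higher group of each gene, was 110 CPM. All 13 on chromosome II were higher, with log2 fold changes from 0.77 to 1.51, and their sum was 849, 1492 and 729 CPM in fem-2 and 2101 and 2679 CPM in M+P+ offspring. Of 22 on chromosome IV 18 were lower and 3 higher, with sums of 27882, 26549.9 and 24674 CPM and 15238 and 17709 CPM. On chromosome V 18 of 27 were not called. The chromosome II sum also differed widely among the N2 libraries, with 1337, 1355 and 252 CPM, the last of them from another run than the first 2. his-15 (F08G2.1), on chromosome II, was read at 111, 204 and 85.7 CPM against 342 and 408 CPM, and his-46 (F54E12.3), on chromosome IV, at 1521, 1356 and 1607 CPM against 496 and 564 CPM.

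The sums of snoRNA and snRNA genes, lists chosen after the data were seen, varied within fem-2. Of 60 snoRNA genes tested 27 (45%) were lower and 2 (3.33%) higher, and their sum was 4117, 2785 and 2050.2 CPM in fem-2 and 1270.5 and 1388 CPM in M+P+ offspring. Of 29 snRNA genes 16 (55.2%) were lower and 10 (34.5%) higher, with sums of 1422, 861 and 366 CPM against 205 and 194 CPM. Of all genes tested 22.7% were lower and 32.7% higher. In N2 the sums spanned 1421 to 2252 CPM for snoRNA genes and 242 to 817 CPM for snRNA genes.

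X-linked genes separated the M+P+ replicates from each other. They took 1.58%, 1.45% and 1.76% of the counts in fem-2 and 2.54% and 1.68% in M+P+ offspring. The 95% Wilson intervals of the M+P+ shares, which cover counting error only, were 2.53% to 2.55% and 1.67% to 1.69%. The means were 1.60% ± 0.155 (SD, n = 3) and 2.11% ± 0.610 (SD, n = 2), a difference of 0.511 percentage points that did not pass an exact two-sided permutation test over libraries (p = 0.2, and 0.2 adjusted over 2 shares tested, where the smallest p possible is 0.1). Without M+P+ replicate 1 the difference was 0.079 percentage points. In N2 the share was 1.42% to 1.64%, and in M+P- offspring it was 4.39% and 2.67%.

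Across genes, 515 of 1212 X-linked genes tested (42.5%) were higher and 80 (6.60%) lower, and the X-linked median log2 fold change exceeded the autosomal one by 0.72. Of the 515 higher genes, 195 had at most 3 counts in every fem-2 library. This excess shrank at higher levels. Among genes with a mean of at least 5 CPM, 82 of 564 X-linked genes were higher (14.5%) and 61 lower (10.8%), against 11.4% and 36.5% of 6236 autosomal genes, with medians of 0.05 and −0.21. At 50 CPM or more 8 of 65 X-linked genes were higher and 24 were lower, and the X-linked and autosomal medians were both −0.24.

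Taken singly, the M+P+ libraries differed in size over all genes tested and in direction at higher levels. Over all genes tested, and with 0.5 CPM added to each level, the median log2 ratio to the fem-2 mean of X-linked genes exceeded that of autosomal genes by 0.92 in replicate 1 and by 0.26 in replicate 2. For the 564 X-linked genes with a mean of at least 5 CPM, replicate 1 had a median log2 ratio to the fem-2 mean of 0.34, against −0.23 for autosomal genes. Replicate 2 had one of −0.42, against −0.20. In replicate 1, 342 of these genes (60.6%) lay above all 3 fem-2 libraries and 134 (23.8%) below them. In replicate 2, 114 (20.2%) lay above and 338 (59.9%) below. For autosomal genes the replicates were alike, with 24.7% and 26.1% above and 61.2% and 59.1% below. The M+P- libraries had X-linked medians of 1.003 and 0.41, and the N2 libraries had −0.04, −0.30 and −0.0071.

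**Figure D4:**
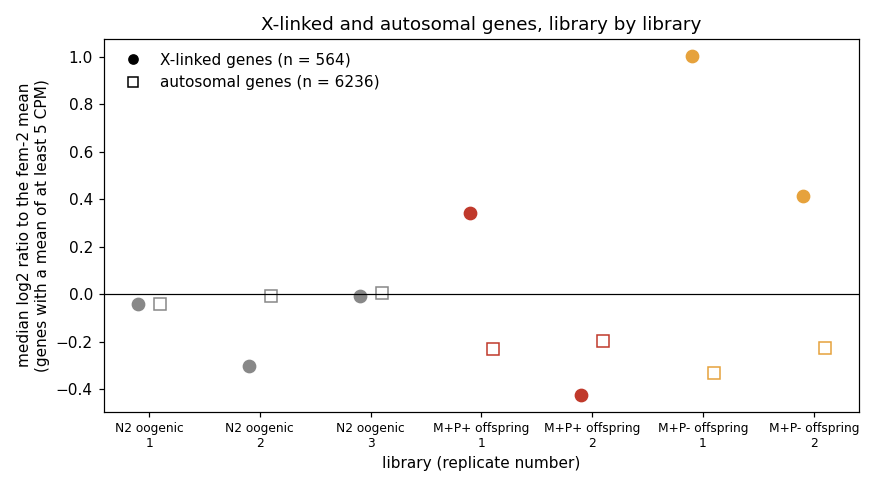
Median log2 ratio to the fem-2 mean of X-linked and autosomal genes with a mean of at least 5 CPM, for single libraries. X-linked genes lie above autosomal genes in M+P+ replicate 1 (0.34 against −0.23) and below them in replicate 2 (−0.42 against −0.20).

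Several of the named X-linked genes showed the same split. chd-3, a Mi-2 chromatin remodeller, was read at 36.1, 34.6 and 41.4 CPM in fem-2 and at 101 and 38.2 CPM in M+P+ replicates 1 and 2. rbc-1, a Rabconnectin homolog, was read at 90.6, 93.1 and 103 CPM against 259 and 89.6 CPM, and dpy-22, a Mediator subunit, at 69.7, 86.3 and 86.3 CPM against 179.5 and 79.6 CPM. The groups overlapped for all 3, and their calls rested on replicate 1. Without it the log2 fold changes were −0.012, −0.14 and −0.058 for chd-3, rbc-1 and dpy-22, and with it DESeq2 called none of them. lin-15B, which overlaps exons of another gene, was read at 75.5, 87.1 and 75.6 CPM against 138 and 83.0 CPM. Y73B3A.1 and F02E8.4 lay above fem-2 in both libraries, Y73B3A.1 with 47.1, 52.2 and 39.9 CPM against 72.6 and 68.3 CPM, and F02E8.4 with a log2 fold change of 0.25 ± 0.09 (SE) that DESeq2 did not call. Of the X-linked genes called lower, the most abundant other than the vitellogenins were mrp-4, an ABC transporter overlapped on the other strand, and pdi-2, a protein disulfide isomerase that overlaps exons of another gene. mrp-4 fell from 898, 921 and 823 CPM to 574 and 519 CPM and pdi-2 from 229, 208 and 208 CPM to 134 and 81.7 CPM, and for pdi-2 replicate 2 was again the lower one.

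**Figure D5:**
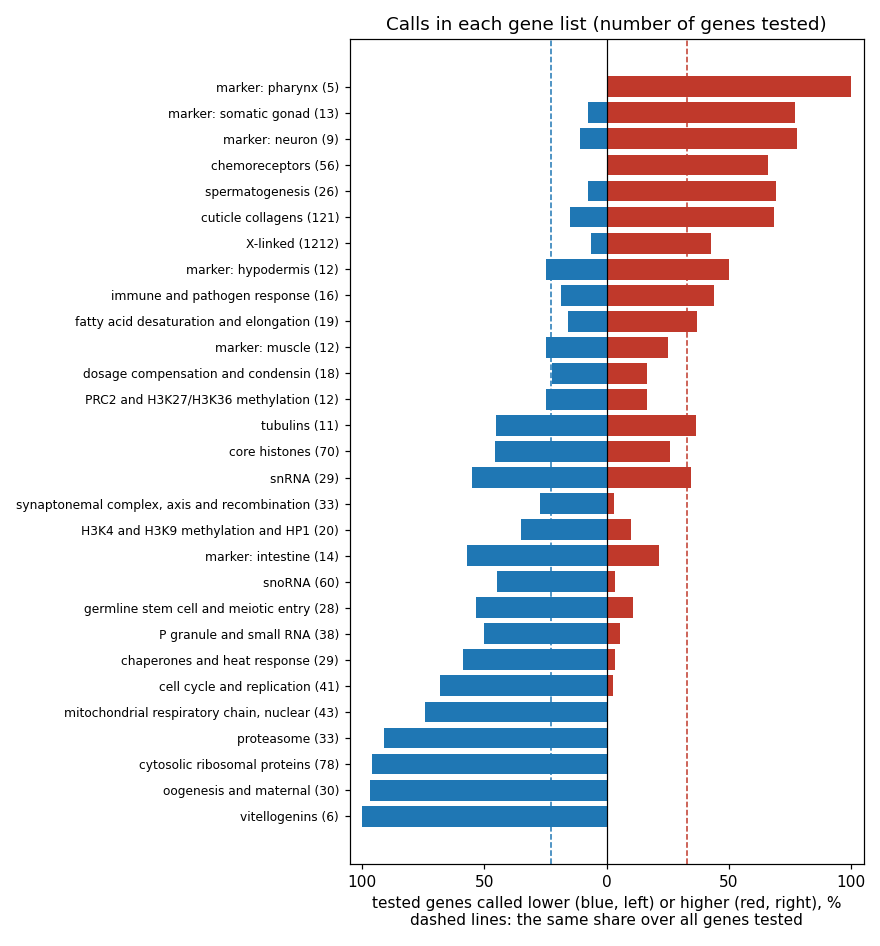
Share of tested genes called lower or higher in each gene list, in % of the genes tested. In the vitellogenin, oogenesis, ribosomal protein and proteasome lists 90.9% or more were lower, against 22.7% of all genes tested. Of genes with a mean of 100 to 500 CPM 48.1% were lower, and of those at 500 CPM and over 74.7% were.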

How the data were processed

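Per the labels and the study's methods, the authors depleted rRNA, prepared libraries with a kit that does not mark strand, aligned reads with TopHat2 and counted them with HTSeq. The deposited counts per gene are raw and not pooled. No source used here gives the HTSeq strand option. Deposited tables of the authors' own comparisons and of group means were not used. Of 45461 identifiers 44933 matched 1 gene of the Ensembl annotation of WBcel235, which gave names, chromosomes, exon overlaps and lengths.

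edgeR 4.0.16 (R 4.3.3) was run on the 5 libraries alone, with TMM scaling, filterByExpr, the quasi-likelihood test and Benjamini-Hochberg adjustment over all genes tested (threshold 0.05). DESeq2 1.42.0 was an alternative, beside other scalings, filters and fits, a length correction and the omission of each library. CPM used TMM factors over the 10 oogenic libraries. Beside the genes said to be overlapped in the report, col-143, amx-1, lab-1, glp-1, pri-2, psf-1, rpl-39, hsp-90 and rpc-1 overlap a gene on the other strand and pbs-7 and cox-6B one on the same strand, so their values are uncertain. No pair of replicates agreed within sampling noise (chi-square per degree of freedom 5.20 to 14.2). Depth limits genes near the floor of 3 counts per library.

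The groups compared, the lists and the named genes were chosen with earlier results of these data known. Named were mes-3, fem-2 and him-8; per direction, the 8 largest changes among protein-coding genes called by both tools with no overlap between groups and at least 10 CPM in the higher group, the 6 most abundant and the 6 most abundant X-linked genes called; and up to 4 called members per list with at least 5 CPM in the higher group. Of the genes this rule takes, 1 is not reported here. List members named outside this rule were chosen after their values were seen.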

Additional observations from a re-analysis of the deposited data

Results flagged for a closer look

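Reads that HTSeq placed in no gene, which the comparisons of genes do not use, averaged 17.1% in M+P+ offspring (15.4% and 18.8%), above each fem-2 library (10.6%, 11.6% and 12.15%). The difference of 5.65 percentage points gave the smallest p that 2 against 3 libraries allow (exact two-sided permutation test over libraries, p = 0.1, and 0.2 adjusted over 2 shares tested). The M+P- libraries of the same run lay at 13.2% and 14.5%, and the N2 oogenic libraries at 10.8% to 14.1%. The cause was not tested.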

How the results depend on the processing

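The genes called lower went from 2438 to 877 with library totals, 3845 with no count filter, 464 with all 25 libraries in 1 fit, 4600 with length-trend offsets and 441 with a change of at least 2-fold required as well, and the genes called higher from 3511 to 9352 with no count filter. Of genes with a mean of at least 5 CPM 770, and of those with at least 20 CPM 323, were higher, choices made after the data were seen, and in the latter the X-linked excess over autosomal genes was 0.22. Higher genes made up 70.9% of calls with no filter, 87.8% with all 25 libraries and 39.2% with length offsets. DESeq2 called 4564 higher and 2099 lower. With length offsets 76 genes were called in the opposite direction. Leaving out 1 library gave 2892 to 4074 higher genes, 1609 (without fem-2 replicate 3) to 3061 lower genes, a difference in X-linked share of 0.079 to 0.942 percentage points, and an X-linked excess of 0.20 (without M+P+ replicate 1) to 0.92. Of the named genes, the calls of arle-14, chd-3, col-19, cox-17, dpy-22, dpy-30, elo-2, elo-6, F02E8.4, his-41, jmjd-1.2, jmjd-3.1, lab-1, lin-15B, mlc-2, nol-56, pals-22, rbc-1, spe-48, tba-4, tni-4 and wdr-5.2 were each lost without at least 1 fem-2 library, those of elo-6, F02E8.4, his-41, lin-15B, pals-22, wdr-5.2 and xol-1 without M+P+ replicate 1, and those of let-716, nol-56, rpc-1, tba-4 and tni-4 without M+P+ replicate 2. The replicate numbers do not pair the samples, since same-numbered libraries came from different runs and their deviations correlated at −0.0449 and −0.000941. The fit with the replicate number as a block called 3147 higher and 2172 lower. The cause of each shift was not tested.

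Some named genes changed sign in their log2 fold change. With DESeq2 glp-1 was at 0.0054 and him-8 at 0.00341. With RLE size factors glp-1 was at 0.0622 and him-8 at 0.061. With library totals dpy-30 was at 0.0125, fem-1 at 0.249, glp-1 at 0.341, him-8 at 0.338, jmjd-1.2 at 0.126, mes-3 at 0.164, mes-4 at 0.126 and mes-6 at 0.0648. With TMM from autosomal genes glp-1 was at 0.00689 and him-8 at 0.00507. With no count filter mes-2 was at −0.20. With a minimum of 10 counts per library mes-2 was at −0.000143. With all 10 oogenic libraries mes-2 was at −0.028. All 25 libraries in 1 fit also ended the calls of fem-2 and fasn-1 among 54 named genes. With all 25 libraries glp-1 was at 0.0924 and him-8 at 0.092. With the replicate block mes-2 was at −0.0132. With length-trend offsets, which moved the median of all genes to −0.34, dpy-22 was at −0.415, F02E8.4 at −0.394, frm-1 at −0.909, let-716 at −0.451, lin-15B at −0.277, mes-2 at −0.643, nol-56 at −0.28, rad-50 at −0.167, rbc-1 at −0.172, rpc-1 at −0.375, rpoa-2 at −0.346, sma-1 at −0.00848, utp-20 at −0.0897, vab-10 at −0.572 and Y73B3A.1 at −0.0731. Over the fits that each left out 1 library the values ran from −0.0568 to 0.059 for him-8, −0.167 to 0.10 for mes-2, −0.077 to 0.0335 for glp-1, −0.0118 to 1.39 for chd-3, −0.0579 to 1.12 for dpy-22 and −0.136 to 1.4 for rbc-1.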
